A study of Homo sapiens with 6 samples.

Results

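The transcripts of the secretory-phenotype interleukins and of the IL1 and IL6 receptors, IL1A, IL1B, IL1R1, IL1RN, IL6, IL6ST, IL11, LIF, IL24 and IL33, were measured in mitotic ERRAS cells. The members were taken by gene symbol, and all 10 were found among the 63129 genes of the deposited table. ERRAS cells are IMR90 human lung fibroblasts, used at early passage, that stably carry oncogenic H-RasV12 fused to the ligand-binding domain of the estrogen receptor, so that tamoxifen switches the oncogene on. All 6 libraries came from cells with this construct, grown under G418 and arrested in mitosis with 1 μM dimethylenastron (DME), an drug against the mitotic kinesin Eg5. The 3 control libraries came from uninduced cells and the 3 Ras-induced libraries from cells given 100 nM tamoxifen for 4 days. In both groups the detached cells were collected, with a mitotic index above 90%. No group received tamoxifen without the construct, so Ras activation and the drug cannot be told apart.

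Interleukins of the IL1 family bind receptors that signal through the adaptor MYD88, IRAK kinases and TRAF6 to NF-κB and MAP kinases. IL6, IL11 and LIF bind separate receptor chains but share the signalling subunit gp130, encoded by IL6ST, which works through JAK kinases and STAT3. Fibroblasts that become senescent after oncogene activation are known to secrete IL1 and IL6 family cytokines as part of an inflammatory secretome, in which IL1A and the transcription factors NF-κB and C/EBPβ act upstream of IL6.

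Expression was read as FPKM, a fragment count corrected for the length of the transcript and the size of the library, which allows levels of different genes to be set side by side. The filter on low values kept the 13993 genes whose 6 libraries averaged 1 FPKM or more. These were compared with limma on log2(FPKM + 1), and a gene was called altered when its adjusted p, by the Benjamini-Hochberg method over all of them, did not exceed 0.05. Fold changes on this scale understate those of genes with low FPKM. Of the 13993 genes, 16.7% were altered, with 11.0% higher and 5.67% lower in Ras-induced cells. These were 1543 higher and 793 lower genes, but 1044 higher and 1109 lower after quantile normalization and 921 higher and 1101 lower after upper-quartile scaling. HRAS itself was listed at 1140 to 1176 FPKM in control and 1439 to 1847 FPKM in Ras-induced libraries, with a log2 difference of 0.44 (adjusted p = 0.0431 from limma, and from 0.0193 to 0.166 over the alternatives), and reads of the endogenous gene and of the construct cannot be told apart. The steps between low FPKM values put the depth of the other 5 libraries at 0.844 (Ras-induced replicate 2) to 1.17 (control replicate 3) of that of the first control library. The deposited FPKM carry no read totals, and absolute depth was not used here. The fibroblast genes VIM and FN1 were abundant in every library and not altered, while 3 of 10 fibroblast markers (COL1A2, THY1 and LUM) fell after induction. COL1A1 and COL3A1 also had groups that did not overlap, with log2 differences of -1.43 and -1.25, but missed the threshold (adjusted p = 0.0501 and 0.0553 from limma, called in 6 and 4 of 13 alternatives). Of 12 mitotic markers 7 were lower in Ras-induced cells and none higher, with summed levels of 2144 to 2229 FPKM in control and 1719 to 1902 FPKM in Ras-induced libraries. The part of this shift in the results below was not tested.

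Of the 10 members, 7 reached the filter on low values, and 2 of these, IL1B and LIF, were altered (28.6%, against 16.7% of all tested genes), both higher in Ras-induced mitotic cells, a direction in which 11.0% of tested genes were called. IL1R1, IL6, IL6ST, IL11 and IL24 were tested and not called. IL1A, IL1RN and IL33 stayed under the filter. IL1B had a control mean of 0.779 FPKM and a Ras-induced mean of 6.95 FPKM, so it reached the filter only through the Ras-induced libraries. The share of altered members therefore depends in part on the filter. Without the filter IL1B was still called (adjusted p = 0.0271 from limma). The comparison is of whole populations, in which a difference in the number of expressing cells and one in the RNA per cell cannot be told apart. The groups did not overlap for 3 of the 7 tested members, IL1B, IL1R1 and LIF, a share to be read against 39.9% of all tested genes. The median log2 difference of the 7 tested members was -0.19, beside 0.10 for all tested genes.

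**Figure D1:**
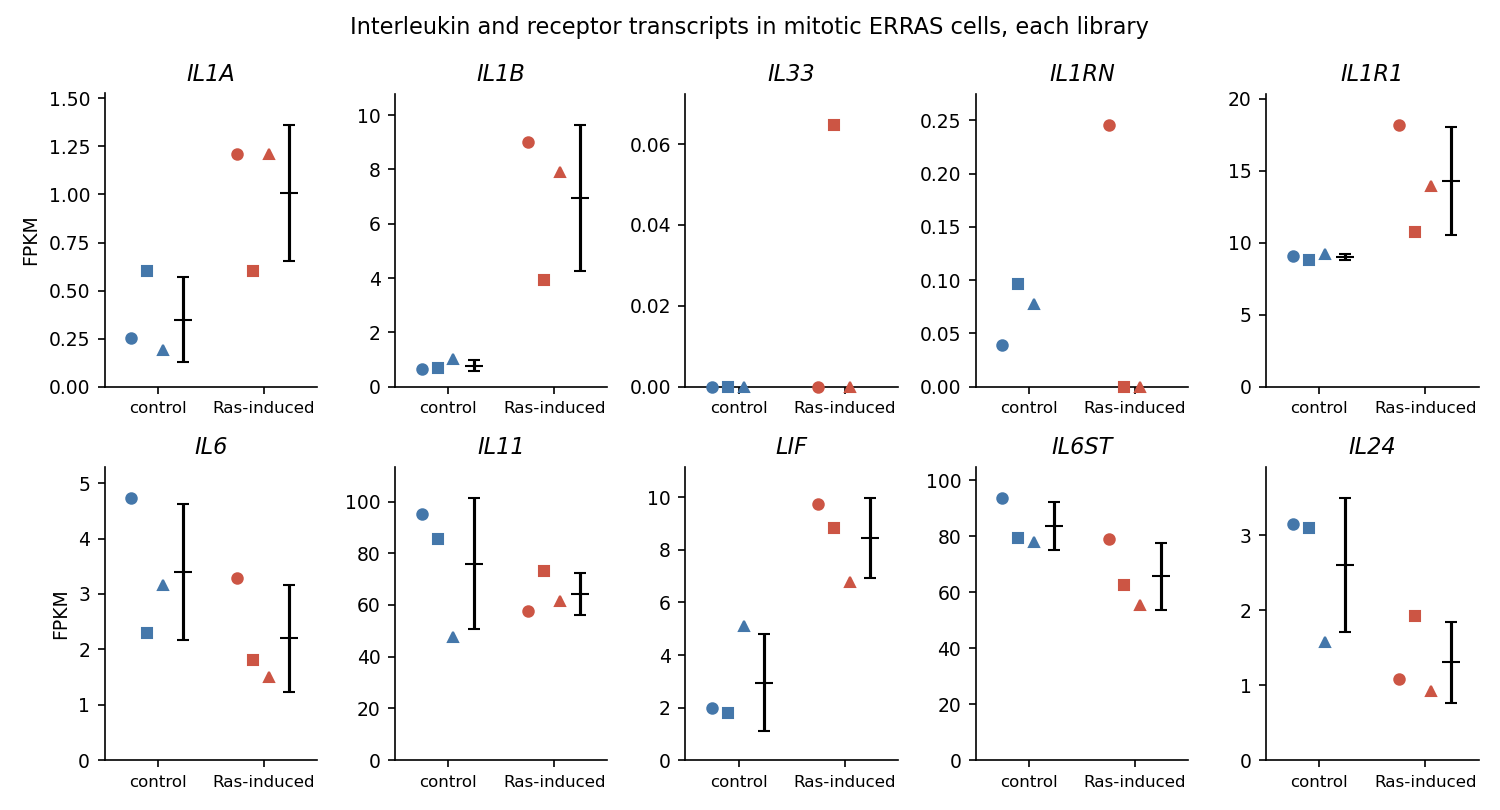
FPKM of the 10 members in each library (vertical axes from 0, a separate scale for each gene), with blue points for the 3 control and red points for the 3 Ras-induced libraries, circles, squares and triangles for replicates 1, 2 and 3, and black bars for the mean ± SD where no library is listed at 0. The groups do not overlap for IL1B, IL1R1 and LIF.

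IL1B encodes the secreted IL1 ligand that is made as an inactive precursor and cut by caspase-1. It lies on chromosome 2 of GRCh37 from 113587328 to 113594393 on the minus strand (ENSG00000125538). IL1B was listed at 0.638, 0.681 and 1.02 FPKM in control libraries and at 9.02, 3.92 and 7.91 FPKM in Ras-induced libraries. The lowest Ras-induced library, replicate 2, was well above the highest control, and the groups did not overlap. The mean rose from 0.779 ± 0.208 FPKM (n = 3, SD) to 6.95 ± 2.69 FPKM (n = 3, SD), 8.92 times the control mean, with a log2 difference of 2.10 (standard error 0.28, adjusted p = 0.00679 from limma). It was called in all 13 alternative fits that tested it, with adjusted p-values from 0.00269 to 0.0429.

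IL1A, the other IL1 ligand, acts in part on the surface of the producing cell and is active before cleavage. The gene (ENSG00000115008, chromosome 2 of GRCh37 from 113531502 to 113542070, minus strand) is the immediate neighbour of IL1B. IL1A was listed at 0.255, 0.603 and 0.190 FPKM in control and at 1.21, 0.601 and 1.21 FPKM in Ras-induced libraries. Replicates 1 and 3 of the Ras-induced cells were above every control, whereas replicate 2 was level with control replicate 2, so that the groups overlapped. With a mean of 0.678 FPKM over the 6 libraries IL1A was under the filter. Tested without the filter its log2 difference was 0.57 (adjusted p = 0.171 from limma), and the exact two-sided permutation test over the 6 libraries gave p = 0.2, where 0.1 is the smallest p that 3 libraries against 3 allow. A difference in IL1A was not detectable with these libraries. Within each library IL1B stood above IL1A. The ratio of their FPKM was 2.50, 1.13 and 5.35 in control and 7.45, 6.52 and 6.53 in Ras-induced libraries.

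The 250 bases before the transcription starts of IL1B, which rose, and IL1A, which was not called, are shown to set the neighbouring genes side by side. The sequences are from RefSeq (GRCh38.p14 table) and were placed on GRCh37 by exact match, the IL1B window at chr2:113594357-113594606 and the window of the first of 2 IL1A starts at chr2:113541978-113542227, both on the minus strand. Capitals mark matches on either strand to the AP-1 motif TGANTCA or to the C/EBP motif TTNNGNAA, and sequences run 5′ to 3′ and end at the base before the start.
IL1B: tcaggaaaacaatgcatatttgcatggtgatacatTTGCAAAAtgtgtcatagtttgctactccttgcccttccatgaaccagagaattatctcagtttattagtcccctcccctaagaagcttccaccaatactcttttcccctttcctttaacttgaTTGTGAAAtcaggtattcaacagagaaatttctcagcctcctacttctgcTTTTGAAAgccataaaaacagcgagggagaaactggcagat
IL1A: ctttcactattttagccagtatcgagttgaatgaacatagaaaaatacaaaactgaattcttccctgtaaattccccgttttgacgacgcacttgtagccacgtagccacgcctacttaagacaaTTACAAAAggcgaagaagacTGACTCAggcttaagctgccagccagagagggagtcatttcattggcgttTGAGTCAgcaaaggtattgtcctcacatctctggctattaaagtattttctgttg
The IL1B window held 3 C/EBP matches, the nearest at positions -41 to -34, and no AP-1 match. The IL1A window held 2 AP-1 matches, at -105 to -99 and at -55 to -49, and 1 C/EBP match at -125 to -118. In all 35114 RefSeq promoter windows of this length, 33.2% held the C/EBP motif and 6.57% the AP-1 motif.

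The receptor IL1R1, which binds both ligands and carries the signal, was the most abundant IL1-system member. It was listed at 9.06, 8.81 and 9.19 FPKM in control and at 18.2, 10.7 and 14.0 FPKM in Ras-induced libraries. Every Ras-induced library was higher than every control, and Ras-induced replicate 2 was again the lowest of its group. The control mean was 9.02 ± 0.194 FPKM (n = 3, SD) and the Ras-induced mean 14.3 ± 3.74 FPKM (n = 3, SD), a log2 difference of 0.58 (95% interval from 0.16 to 1.00, adjusted p = 0.0679 from limma), which did not pass the threshold. Of 13 alternatives, whose adjusted p-values ran up to 0.187, the fit without Ras-induced replicate 2 was the only one to call it (log2 difference 0.76, adjusted p = 0.035). IL1R1 (ENSG00000115594) lies on chromosome 2 of GRCh37 from 102681004 to 102796334.

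IL1RN encodes the receptor antagonist that occupies IL1R1 without signalling. It was listed at 0.0394, 0.0968 and 0.0776 FPKM in control libraries, at 0.246 FPKM in Ras-induced replicate 1 and at 0 in the other two libraries. IL33, an IL1-family alarmin stored in the nucleus, was listed at 0 in every library but Ras-induced replicate 2, where it was at 0.0648 FPKM. No fold change is given for either gene. Both ligands that act on IL1R1 were thus listed above their antagonist in every library.

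IL1A, IL1B and IL1RN belong to a run of 9 IL1-family genes on chromosome 2 of GRCh37 between 113531502 and 113891593. Of the 9, IL1B was the only one with a mean of at least 1 FPKM. Between IL1B and IL1RN, IL37 reached at most 0.507 FPKM, in control replicate 1, and IL36G at most 0.0667 FPKM. IL36A, IL36B and IL1F10 were at 0 in all libraries. IL1R1 likewise sits among receptor genes of the family. Its neighbours IL1RL2, the IL36 receptor, and IL18R1, the IL18 receptor, stayed under 1 FPKM in every library, and IL1RL1, the receptor of IL33, reached at most 0.254 FPKM. IL18, on chromosome 11, was listed at 0.443, 0.400 and 0.615 FPKM in control and 0.0925, 0.0798 and 0.203 FPKM in Ras-induced libraries, the reverse order of IL1B, but was under the filter. Its groups did not overlap, and tested without the filter its log2 difference was -0.40 (adjusted p = 0.0507 from limma).

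Of 20 genes of IL1 maturation and signal relay, 17 were tested and 2 were altered, both higher (11.8%, against 16.7% of all tested genes). CASP4, an inflammatory caspase of the non-canonical inflammasome, rose from 56.3 ± 2.96 FPKM (n = 3, SD) to 91.9 ± 4.99 FPKM (n = 3, SD), with a log2 difference of 0.70 (adjusted p = 0.00405 from limma). CAPN2, the large subunit of a calpain able to cut the IL1A precursor, went from 356.5 ± 8.09 FPKM (n = 3, SD) to 454.7 ± 43.8 FPKM (n = 3, SD), with a log2 difference of 0.35 (adjusted p = 0.0454 from limma, and up to 0.147 over the alternatives, of which 5 of 13 called it). Caspase-1 itself, CASP1, was listed at 8.88 to 9.41 FPKM in control and 6.28 to 13.5 FPKM in Ras-induced libraries, and NLRP3, the sensor of the classical inflammasome, at 0.0530 FPKM or less. MYD88 was at 5.76 to 6.10 FPKM in control and 4.87 to 6.98 FPKM in Ras-induced libraries. Among the receptors and decoys of the family outside the members only SIGIRR and IL18BP were tested, of 10, and neither was altered. The co-receptor IL1RAP has more than 6 values in its row and was not used here.

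Leukocytes are a common source of IL1B. The leukocyte markers ITGAM, CD3E, TYROBP and AIF1 were listed at 0 in every library, PTPRC was at 0.0140 FPKM in one control library and 0 elsewhere, and CD14 and LYZ stayed at or under 0.194 FPKM. The summed level of the 10 leukocyte markers was 25.4 to 30.9 FPKM in control and 30.6 to 36.1 FPKM in Ras-induced libraries, nearly all of it CD68, a lysosomal protein gene that fibroblasts also express. Of 6 endothelial markers only TEK passed the filter, and it fell (log2 difference -1.45, adjusted p = 0.00126 from limma), while PECAM1 and ERG were at 0. Of 6 epithelial markers 3 were tested and none was altered, with means in control and Ras-induced cells of 11.7 and 11.6 FPKM for KRT5, 10.2 and 8.45 FPKM for KRT14, and 2.10 and 2.37 FPKM for KRT19. EPCAM, under the filter, was at 0.880 to 1.80 FPKM in control and 0.167 to 0.424 FPKM in Ras-induced libraries. The summed level of the 6 was 19.1 to 35.5 FPKM in control and 21.4 to 23.6 FPKM in Ras-induced libraries. The part of any of these cell types in the IL1B result was not tested.

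Among the gp130 ligands, LIF rose while IL6 and IL11 were not altered. LIF (leukemia inhibitory factor, ENSG00000128342, chromosome 22 of GRCh37 from 30636442 to 30642748, minus strand) was listed at 1.99, 1.78 and 5.10 FPKM in control and at 9.74, 8.82 and 6.80 FPKM in Ras-induced libraries. The groups did not overlap, but control replicate 3 was closer to the lowest Ras-induced library than to the other two controls. The mean rose from 2.96 ± 1.86 FPKM (n = 3, SD) to 8.45 ± 1.51 FPKM (n = 3, SD), 2.86 times the control mean, a log2 difference of 1.34 (standard error 0.32, adjusted p = 0.034 from limma). The call was lost without control replicate 1 or 2, where the log2 difference was 1.19 or 1.13 (adjusted p = 0.117 and 0.12 from limma). It was also lost without Ras-induced replicate 1, 2 or 3, where the log2 difference was 1.24, 1.31 or 1.47 (adjusted p = 0.119, 0.102 and 0.0865). In these 5 fits 860 to 1443 genes were called in all, against 2336 with every library. IL1B stayed called in the same fits (adjusted p from 0.0079 to 0.0429). The cause of the lost calls was not tested. Without control replicate 3 the log2 difference was 1.70 (adjusted p = 0.0129 from limma). The call was also lost after upper-quartile scaling (log2 difference 1.25, adjusted p = 0.051) and without the filter on low values (log2 difference 1.34, adjusted p = 0.0944). Counting the replicate block, which lost it too, 5 of 13 alternatives called LIF. LIF shares 86 exonic bases with LIF-AS1 and 83 with LIF-AS2 on the other strand, listed at up to 0.0964 and 0.393 FPKM, and reads over those bases cannot be assigned to a strand. OSM, the next gene of the family beside LIF on chromosome 22, was listed at 0 in every library.

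IL6, the ligand most often used as a mark of the senescent secretome, was listed at 4.72, 2.30 and 3.16 FPKM in control and at 3.29, 1.80 and 1.496 FPKM in Ras-induced libraries. The groups overlapped, and the lowest libraries, replicates 2 and 3, were Ras-induced. The means were 3.39 ± 1.23 FPKM (n = 3, SD) and 2.20 ± 0.959 FPKM (n = 3, SD). The log2 difference was -0.46 with a 95% interval from -1.14 to 0.22 (adjusted p = 0.301 from limma), so that on this scale a rise larger than 0.22 lay outside the interval of this fit. With single libraries left out it ranged from -0.695, without Ras-induced replicate 1, to -0.253, without control replicate 1. None of the 13 alternatives called IL6. IL6 shares 46 exonic bases with STEAP1B, listed at up to 24.2 FPKM, and 428 with IL6-AS1, listed at up to 0.643 FPKM, both on the other strand, where reads cannot be assigned either. LIF was below IL6 in 2 of 3 control libraries, above it in control replicate 3, and above it in all 3 Ras-induced libraries. The ratio of LIF to IL6 in FPKM was 0.42, 0.774 and 1.61 in control and 2.96, 4.89 and 4.54 in Ras-induced libraries.

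IL11, a ligand linked to fibroblast activation, was by far the most abundant cytokine of the 10. It was listed at 95.1, 85.5 and 47.5 FPKM in control and at 57.5, 73.3 and 61.7 FPKM in Ras-induced libraries. All 3 Ras-induced values lay inside the control range, and control replicate 3 was the lowest of all. The means were 76.0 ± 25.2 FPKM (n = 3, SD) and 64.2 ± 8.17 FPKM (n = 3, SD), with a log2 difference of -0.19 (95% interval from -0.81 to 0.43, adjusted p = 0.647 from limma). Without control replicate 3 the log2 difference was -0.49 (adjusted p = 0.0628), and without control replicate 1 it was 0.0017. Of the summed FPKM of IL6, IL11 and LIF, IL11 made up 93.4%, 95.5% and 85.2% in control and 81.5%, 87.3% and 88.2% in Ras-induced libraries. LIF made up 1.95%, 1.98% and 9.15% in control and 13.8%, 10.5% and 9.71% in Ras-induced libraries.

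The 250 bases before the starts of IL6 (chr7:22766569-22766818, plus strand) and IL11 (chr19:55881832-55882081, minus strand), both on GRCh37, are given for comparison with the IL1 genes, since neither transcript was altered. Capitals mark matches to the AP-1 and C/EBP motifs and to the NF-κB (kappaB) motif.
IL6: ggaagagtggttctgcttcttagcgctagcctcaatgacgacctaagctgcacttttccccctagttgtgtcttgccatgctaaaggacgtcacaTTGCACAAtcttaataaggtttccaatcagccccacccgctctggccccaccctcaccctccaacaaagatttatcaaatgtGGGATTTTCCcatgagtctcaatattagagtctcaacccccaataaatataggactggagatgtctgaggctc
IL11: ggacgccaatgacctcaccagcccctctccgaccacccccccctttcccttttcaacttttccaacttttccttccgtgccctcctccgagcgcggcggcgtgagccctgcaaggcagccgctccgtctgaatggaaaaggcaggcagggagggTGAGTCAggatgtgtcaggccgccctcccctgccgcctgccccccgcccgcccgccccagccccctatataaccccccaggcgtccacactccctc
IL6 held a kappaB match, GGGATTTTCC, at positions -73 to -64, and a C/EBP match at -155 to -148. IL11 held an AP-1 match, TGAGTCA, at -96 to -90. The kappaB motif was found in 5.21% of all windows, and IL6 was the only 1 of 9 members with a window in the table to hold it. The table has no entry for LIF.

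IL6ST, the shared gp130 subunit, had the highest group mean of the 10 members in both groups, but it was above IL11 in only 1 of 3 libraries of each group. It was listed at 93.5, 79.3 and 78.0 FPKM in control and at 78.9, 62.7 and 55.3 FPKM in Ras-induced libraries. Ras-induced replicate 1 was inside the control range and the other two were below it. The means were 83.6 ± 8.60 FPKM (n = 3, SD) and 65.6 ± 12.0 FPKM (n = 3, SD), a log2 difference of -0.36 (95% interval from -0.70 to -0.01, adjusted p = 0.141 from limma). IL6ST (ENSG00000134352) lies on chromosome 5 of GRCh37 from 55230923 to 55290850. Its exons overlap over 797 bases with an antisense RNA gene, ENSG00000262211, listed at up to 68.1 FPKM, and the library kit does not mark strand, so reads of the pair cannot be told apart there.

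Of the ligand-specific chains, IL11RA fell and IL31RA rose. IL11RA, the receptor of IL11, was listed at 9.19, 11.3 and 9.92 FPKM in control and at 6.17, 7.21 and 5.91 FPKM in Ras-induced libraries, with no overlap. IL11RA fell by 0.58 on the log2 scale (adjusted p = 0.0217 from limma, standard error 0.12), and 8 of 13 alternatives called it, with adjusted p-values up to 0.093. IL31RA, a gp130-like receptor that pairs with OSMR and whose gene lies next to IL6ST (chromosome 5 of GRCh37 from 55147185 to 55218682), was listed at 0.700, 0.476 and 1.02 FPKM in control and at 3.78, 3.06 and 3.72 FPKM in Ras-induced libraries. Its log2 difference was 1.39 (standard error 0.18, adjusted p = 0.00629 from limma), called in all 13 alternatives. LIFR, the LIF receptor chain, was at 7.93 to 9.88 FPKM in control and 5.83 to 7.34 FPKM in Ras-induced libraries (adjusted p = 0.12 from limma), and OSMR at 46.1 to 70.9 FPKM and 62.9 to 70.0 FPKM (adjusted p = 0.331 from limma). IL6R, the membrane receptor of IL6, never exceeded 0.629 FPKM. In all, 6 of the 15 gp130-family genes outside the members were tested, and 1 was higher and 1 lower (33.3%, against 16.7% of all tested genes). IL31RA, with a control mean of 0.732 FPKM, reached the filter only through the Ras-induced libraries, so this share depends in part on the filter. Without the filter IL31RA was still called (adjusted p = 0.0219 from limma).

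Downstream, 3 of 13 tested genes of the JAK-STAT relay and its feedback were altered (23.1%, against 16.7% of all tested genes). STAT3, the main gp130 effector, averaged 36.0 ± 2.08 FPKM (n = 3, SD) before and 28.6 ± 1.98 FPKM (n = 3, SD) after induction, with a log2 difference of -0.32 (adjusted p = 0.0495 from limma), which only 3 of 13 alternatives called. STAT5A had a log2 difference of -0.53 (adjusted p = 0.0469 from limma), called in 5 of 13. PIAS3, an inhibitor of STAT3, had a log2 difference of 0.41 (adjusted p = 0.0239 from limma), called in 7 of 13. SOCS3, a feedback inhibitor that gp130 signalling induces, was at 7.98 to 9.89 FPKM in control and 7.15 to 8.63 FPKM in Ras-induced libraries (adjusted p = 0.487 from limma), and JAK1 at 56.6 to 59.4 FPKM and 46.8 to 53.8 FPKM (adjusted p = 0.23 from limma).

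**Figure D2:**
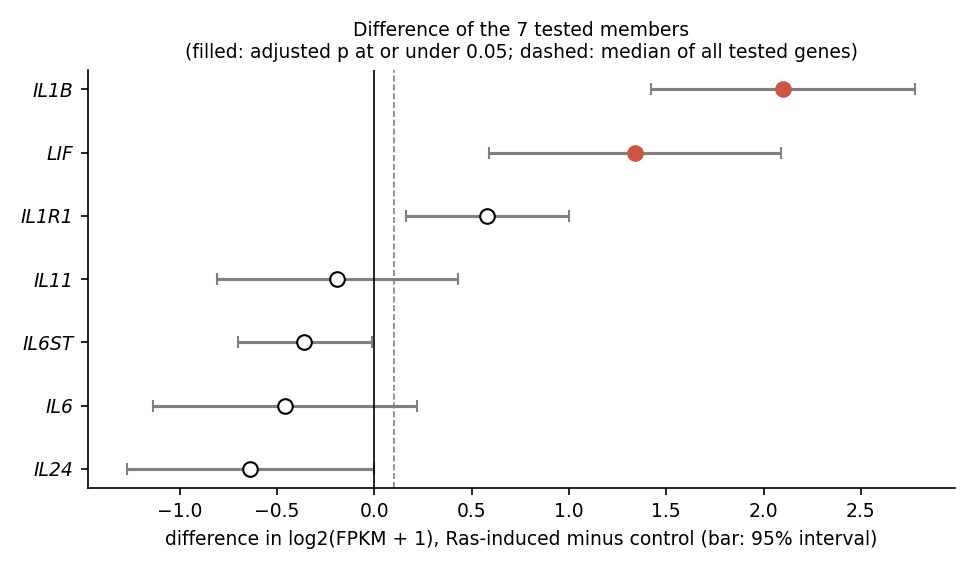
Difference in log2(FPKM + 1) between Ras-induced and control mitotic cells for the 7 tested members (points, with 95% intervals from limma; 3 libraries in each group). Filled points are the altered genes IL1B (2.10) and LIF (1.34), and the dashed line is the median of all tested genes (0.10).

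IL24, a ligand of the IL10 family, was listed at 3.15, 3.09 and 1.58 FPKM in control and at 1.08, 1.92 and 0.918 FPKM in Ras-induced libraries. Ras-induced replicate 2 lay above control replicate 3, so the groups overlapped. The means were 2.60 ± 0.890 FPKM (n = 3, SD) and 1.31 ± 0.539 FPKM (n = 3, SD), and the log2 difference of -0.64 did not pass the threshold (standard error 0.27, adjusted p = 0.149 from limma, and from 0.066 to 0.325 over the alternatives). IL24 (ENSG00000162892, chromosome 1 of GRCh37 from 207070788 to 207077484) shares 823 exonic bases with FCMR on the other strand, listed at up to 2.52 FPKM, so reads of the pair cannot be told apart over those bases. The neighbouring ligand genes IL10, IL19 and IL20 were under 0.1 FPKM in all libraries. Of the IL24 receptor chains, IL20RA reached at most 0.141 FPKM, IL20RB 0.782 FPKM and IL22RA1 0.0202 FPKM. IL20RA did not exceed 0.0332 FPKM in Ras-induced libraries, and only a fit without the filter tested it (log2 difference -0.15, adjusted p = 0.0443 from limma). The window before the IL24 start (chr1:207070538-207070787 of GRCh37, plus strand) is shown in lower case, as it held no match to any of the motifs.
IL24: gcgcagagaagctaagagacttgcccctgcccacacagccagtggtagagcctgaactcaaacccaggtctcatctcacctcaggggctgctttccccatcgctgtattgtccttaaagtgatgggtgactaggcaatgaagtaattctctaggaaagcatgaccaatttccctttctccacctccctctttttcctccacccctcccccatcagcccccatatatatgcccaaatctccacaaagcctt

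Over the 9 members with RefSeq entries, which have 16 starts, 5 had a C/EBP match at one start or more, 3 an AP-1 match, 1 a kappaB match and 2 a TATAAA match on the gene's strand, a motif found in 6.80% of all windows. Members with several starts had more windows in which a match could fall. IL6ST, IL24 and IL33 had none of the 4 motifs. A match is a run of letters, and binding of a factor was not measured here.

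The regulators of interleukin transcription and mRNA decay held 1 altered gene of 12 tested (8.33%, against 16.7% of all tested genes). CEBPB, which encodes C/EBPβ, was listed at 16.4, 11.1 and 8.75 FPKM in control and at 27.8, 25.6 and 27.9 FPKM in Ras-induced libraries. The groups were well apart, and CEBPB rose by 1.14 on the log2 scale (standard error 0.20, adjusted p = 0.0149 from limma; called in 9 of 13 alternatives). The NF-κB genes RELA and NFKB1 were not altered, at 46.9 to 52.7 FPKM and 19.7 to 26.3 FPKM in control and at 45.9 to 46.5 FPKM and 16.3 to 22.4 FPKM in Ras-induced libraries. GATA4, a factor linked to the senescent secretome, did not exceed 0.0874 FPKM.

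Interleukin messages are known for AUUUA pentamers in their 3′ untranslated regions, which recruit proteins that speed decay. In the canonical transcripts of GENCODE 44, IL6 held 6 pentamers in 425 bases, or 14.1 per kilobase, percentile 99.5 of the 18717 untranslated regions compared. IL1B held 6 in 610 bases (9.84 per kilobase, percentile 98.6) and IL11 held 9 in 1625 bases (5.54 per kilobase, percentile 92.5). LIF, which rose, held 7 in 3198 bases, or 2.19 per kilobase, beside a median of 1.58 over all regions, and IL1RN held none. Altered and unaltered members therefore both included pentamer-rich messages. ZFP36, whose product binds these pentamers, was at 1.04 to 1.43 FPKM in control and 1.42 to 2.32 FPKM in Ras-induced libraries (adjusted p = 0.314 from limma). ZC3H12A, encoding an RNase that degrades IL6 mRNA, was at 0.964 to 1.75 FPKM and 1.96 to 3.54 FPKM (adjusted p = 0.0845 from limma).

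Over all 8 pathway lists, 61 of 109 genes were tested and 10 were altered, 6 higher and 4 lower, a share of 16.4% that was close to the 16.7% of all tested genes. The median log2 difference of the 61 tested genes was 0.04. After quantile normalization 5 were higher and 4 lower, and after upper-quartile scaling 4 were higher and 5 lower.

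**Figure D3:**
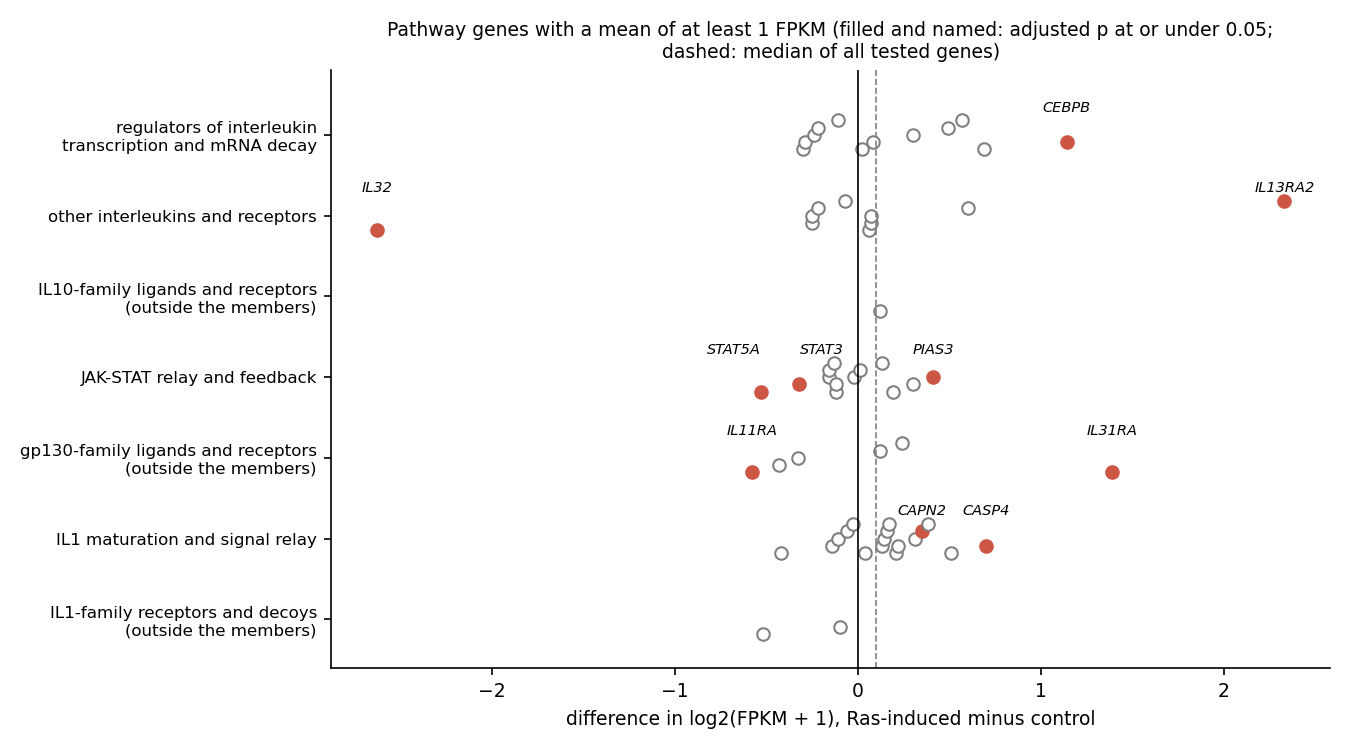
Difference in log2(FPKM + 1) between Ras-induced and control mitotic cells for the 61 tested genes of the pathway lists (each point a gene, offset vertically for clarity; a list without tested genes is not drawn). Filled points are the 10 altered genes, from IL32 (-2.63) to IL13RA2 (2.33), and the dashed line is the median of all tested genes (0.10).

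Ordered by level, control cells had IL6ST and IL11 at the top, then IL1R1, then IL6, LIF and IL24, then IL1B, IL1A, IL1RN and IL33. The ranges of IL6ST and IL11 overlapped, as did those of IL6 with LIF and of LIF with IL24, and no other neighbours did. By mean in Ras-induced cells, LIF stood 4th and IL1B 5th, ahead of IL6 in 6th and IL24 in 7th place. The ranges of IL6ST with IL11, LIF with IL1B, IL6 with IL24, IL24 with IL1A, and IL1RN with IL33 overlapped there, and IL24 was above IL1A in only 1 of 3 libraries. In Ras-induced cells IL1B was 3.16 times IL6 in mean FPKM with no overlap, while in control cells IL6 was above IL1B in every library.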

How the data were processed

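RNA-seq of poly(A) RNA from 6 mitotic ERRAS samples was used, 3 control and 3 Ras-induced. The authors trimmed reads (Trim Galore 0.3.0 per the labels), aligned paired ends to hg19 with Tophat2 and Ensembl build 73 junctions, and deposited Cufflinks FPKM per gene and library. No scaling between libraries is given in the sources used here. The labels give the tamoxifen dose in nM, the paper's methods as the same figure in ng/ml. Columns name the group and a number, which is the replicate number used here. The labels do not name separate cultures, but the legend to this RNA-seq in the paper describes independent repeats of the experiment, so p-values measure the spread between those repeats. The table has 18 unnamed columns, not used, and the 120 genes with more than 6 values were left out. The authors also deposited a cuffdiff table with group FPKM, fold changes, test statistics, p-values and q-values, and its comparison columns were not used.

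limma 3.58.1 (R 4.3.3) compared the groups on a log2 scale after adding 1 to each FPKM, over genes averaging 1 FPKM or more, with moderated two-sided tests, a mean-variance trend and Benjamini-Hochberg adjustment. Count models were not applied, as read counts were not used here. The procedure was tested on simulated data. Alternatives were a pseudocount of 0.1, no filter, at least 1 FPKM in 3 libraries, quantile and upper-quartile scaling, no trend, a replicate block, each library left out, and an absolute log2 difference of at least 1. Coordinates are from GENCODE 44 lifted to GRCh37, the build of hg19. Tables were built in Python 3.11.15 (numpy 2.4.6, pandas 2.3.3), exact tests in scipy 1.17.1 and figures in matplotlib 3.10.9.

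The named genes were all members, pathway genes called by limma, receptors and partners the members need, and genes of the surrounding interleukin clusters. A few others were named after their values were seen. Members and lists were chosen with earlier results of these data known.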

Additional observations from a re-analysis of the deposited data

How the results depend on the processing

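The number of altered members was 2 and fell to 1, IL1B, without the filter on low values and after upper-quartile scaling, and with single libraries left out it ranged from 1 to 2. In the pathway lists 10 genes were altered, 4 of them with an absolute log2 difference of at least 1, and from 4 to 8 with single libraries left out. The log2 difference of HRAS was 0.437 and not called without the filter, without the mean-variance trend and with the replicate block, and 0.327 and not called after upper-quartile scaling. With single libraries left out it ranged from 0.323 to 0.503 and was called in none. The log2 difference of IL11 ranged from -0.492, without control replicate 3, to 0.00169, a change of sign, without control replicate 1. Without Ras-induced replicate 2 the 2 altered members were IL1B and IL1R1. The cause of these changes was not tested, except that leaving out a library leaves fewer samples.

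Same-numbered libraries did not deviate together (correlations of deviations across genes of -0.00266, 0.0433 and 0.0481), so the numbers were not taken as pairs. With the replicate block 2 members were altered, IL1B (adjusted p = 0.013 from limma) and IL6ST, lower (adjusted p = 0.0479), and LIF was not (adjusted p = 0.0593). In all, 8 pathway genes were altered. Libraries numbered 2 and 3 correlated best with their own number in both groups, while those numbered 1 did not. Whether the same number marks the same repeat of the experiment is not given in the labels. Without read counts no floor can be set for IL1A, IL1RN and IL33.
With single libraries left out, 860 to 1872 of all tested genes were altered, against 2336, and 1518 of 29362 without the filter.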

Other observations

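Among 18 other interleukins and receptors, 10 were tested and 2 were altered (20.0%, against 16.7% of all tested genes), and these had the widest differences of the pathway lists. IL32, a cytokine without a typical family, fell from 40.9, 37.9 and 59.0 FPKM in control to 4.79, 6.09 and 8.95 FPKM in Ras-induced libraries, with a log2 difference of -2.63 (standard error 0.24, adjusted p = 0.00252 from limma). IL13RA2, known as a decoy receptor of IL13, rose from 0.433, 0.272 and 0.265 FPKM to 5.25, 4.70 and 7.26 FPKM, with a log2 difference of 2.33 (standard error 0.19, adjusted p = 0.00199 from limma). Both were called in all 13 alternatives. IL13RA2, with a control mean of 0.323 FPKM, reached the filter only through the Ras-induced libraries, so the share of altered genes depends in part on the filter. Without the filter its adjusted p was 0.0107 from limma. IL13RA1 and IL4R, the signalling receptors of IL13, were at 31.9 to 38.8 FPKM and 47.0 to 66.2 FPKM in control and at 33.3 to 39.3 FPKM and 46.3 to 60.7 FPKM in Ras-induced libraries, and neither was altered.

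IRAK3, an inhibitor of IL1 receptor signalling, was listed at 0.966, 1.06 and 1.03 FPKM in control and at 0.458, 0.566 and 0.537 FPKM in Ras-induced libraries. The groups did not overlap, but its mean was under the filter. Tested without the filter its log2 difference was -0.41 (adjusted p = 0.0725 from limma).

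Single libraries recurred at the edge of their group. Control replicate 3 had the highest LIF and the lowest IL11 and IL24 of the controls, each on the side of the Ras-induced libraries. Ras-induced replicate 2 had the lowest IL1A, IL1B and IL1R1 and the highest IL11 and IL24 of its group. These libraries were picked out after their values were seen, and no test is attached. By the steps between low FPKM values, control replicate 3 had the highest relative depth of the 6 libraries (1.17) and Ras-induced replicate 2 the lowest (0.844). The part of depth in these values was not tested.

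The authors' deposited group FPKM gave the same order of the 10 members in control cells, and in Ras-induced cells the same order but for IL11 at 64.7 and IL6ST at 64.6 FPKM.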
